A study of Mus musculus with 6 samples.

Results

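The cystatin and cathepsin genes comprise Cst6, Cst3 and Cstb, which encode cysteine protease inhibitors, the cysteine cathepsin genes Ctsb, Ctsk, Ctsl, Ctss and Ctsz, the aspartic cathepsin gene Ctsd, and Lgmn, which encodes the asparaginyl endopeptidase legumain. These 10 genes were picked from 20659 named genes on the array, and all their non-control probes were taken through the RefSeq transcript accession, which gave 11 probes of 39429. Ctsd has 2 probes and the other 9 genes have 1 each. The set was drawn up with the comparison of the scaffolds known, and the values that bore on the choice are the signals given below. The differences of the 10 genes between scaffolds are therefore given as a description, with no p-value of their own.

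RNA came from MC3T3-E1, a mouse pre-osteoblast cell line, after 3 days on 1 of 2 scaffolds in 24-well plates. The De-HA group (n = 3) grew on a scaffold that had been dealloyed and then given a bioactive coating, and the FeMnSi group (n = 3) grew on the original scaffold, an alloy of iron, manganese and silicon. The labels do not say whether replicates were separate cultures, so every error and p-value here reflects how far these particular samples scatter, and that scatter can be technical. Each sample was labelled with Cy3 and hybridised to 1 Agilent array.

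Cystatins bind reversibly in the active site of papain-like cysteine proteases and block it. Most cathepsins are made as inactive precursors, reach the lysosome and are activated there, and some are also secreted into the matrix, where they cut collagen and other proteins. In bone, cathepsin K is best known as the collagen-degrading protease of osteoclasts, and osteoblasts also make lysosomal cathepsins. Cystatin E/M, the product of Cst6, stands out among cystatins because it blocks legumain at a site separate from the one that blocks cathepsins. Cystatin C shares this property and cystatin B lacks it.

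By scan time the arrays fall into 2 sets, with all De-HA arrays and FeMnSi 1 in the first and FeMnSi 2 and FeMnSi 3 in the second. The sets are called slide 1 and slide 2 here, a name inferred from the scan times, since the labels name no slide. Because slide 2 carried no De-HA array, the difference on slide 1 (De-HA mean minus FeMnSi 1) is given beside the pooled one, and a fit that blocks on slide has the same estimate. Probes well above background made up 63.5% to 74.4% on De-HA arrays and 69.2% to 73.2% on FeMnSi arrays, with no saturated spot. Signals below are given relative to the 75th percentile of the same array, which was 582 to 654 on De-HA arrays and 654 to 720 on FeMnSi arrays. These are levels of 1 probe and are not compared between genes. All 8 osteoblast markers, Runx2, Sp7, Col1a1, Col1a2, Alpl, Ibsp, Sparc and Bglap2, were well above background on all 6 arrays, with a summed signal of 277 to 320 on De-HA arrays and 192 to 244 on FeMnSi arrays. In limma 4 of the 8 rose, where 6.46% of all genes passed as higher. With the slide as a block 0 of the 8 were past the threshold, and 1.16% of all genes were. The part of these markers in the results below was not tested. In these bulk samples fewer cells that express a gene and less RNA per cell cannot be told apart.

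Among the inhibitor genes, Cst6 was far lower on De-HA, while Cst3 and Cstb did not pass the threshold, an adjusted p of 0.05 over all genes. Cst6 encodes cystatin E/M, a secreted inhibitor known from epidermis. Its signal was 0.297, 0.341 and 0.333 times the 75th percentile on De-HA 1, 2 and 3, against 2.0, 1.90 and 1.66 on FeMnSi 1, 2 and 3. The groups lie far apart, and the spread within each is small beside the gap. The means were 0.324 ± 0.023 on De-HA and 1.85 ± 0.175 on FeMnSi (SD, n = 3 each), a log2 fold change of -2.51 ± 0.11 SE, or 5.71-fold lower on De-HA, with -2.63 within slide 1. Of the 15535 genes tested, Cst6 had the 9th lowest log2 fold change.

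Cst3 encodes cystatin C, the main secreted cystatin of most tissues and body fluids. Its signal was 6.94, 7.35 and 6.86 on De-HA, against 7.54, 5.93 and 5.97 on FeMnSi. FeMnSi 1 was above every De-HA array and the 2 FeMnSi arrays of slide 2 were below them, so the groups overlap. The log2 fold change was 0.13 ± 0.12 SE, with a 95% interval from -0.15 to 0.41 and -0.10 within slide 1. Cstb encodes cystatin B, which works inside the cell and holds back cathepsins that leak from lysosomes. It had signals of 3.56, 3.40 and 3.32 on De-HA, against 3.55, 3.99 and 3.86 on FeMnSi. De-HA 1 and FeMnSi 1 were almost level, and the log2 fold change was -0.15 ± 0.09 SE, with an interval from -0.36 to 0.06 and -0.05 within slide 1.

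**Figure D1:**
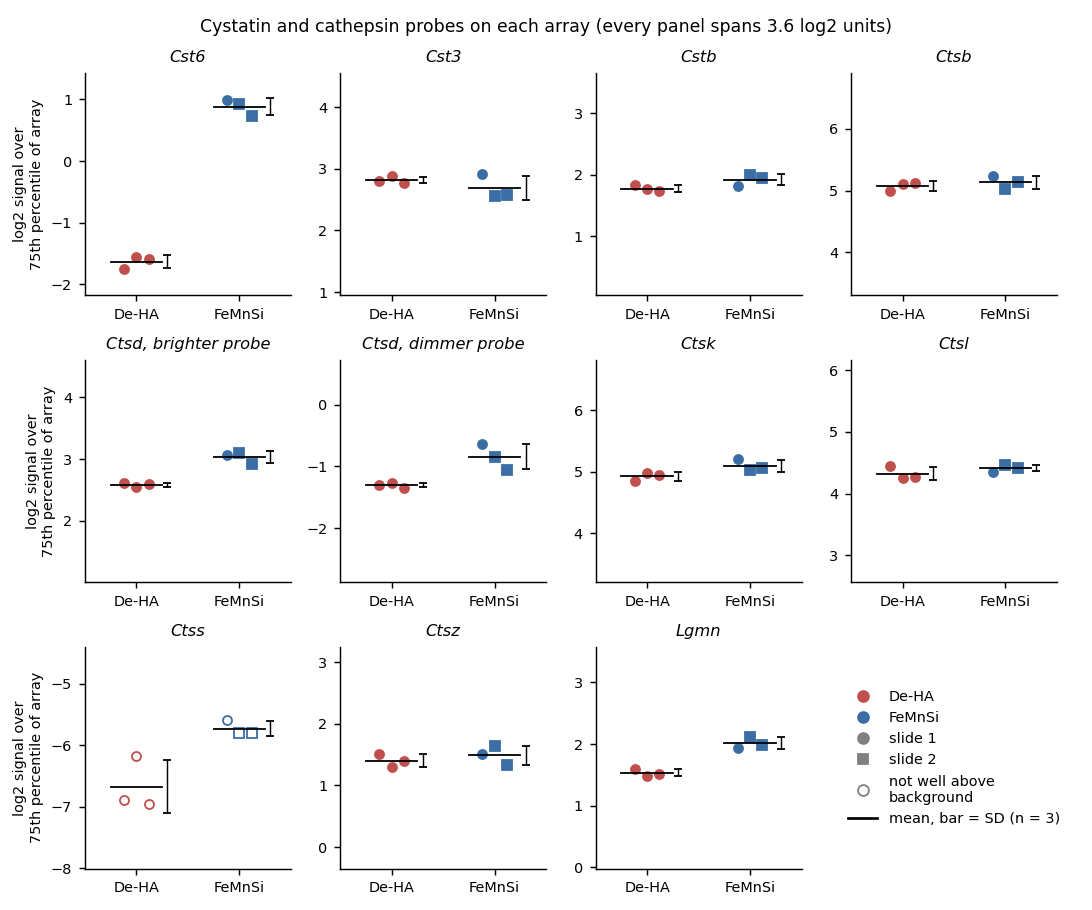
Each panel shows 1 probe, with De-HA arrays on the left and FeMnSi arrays on the right, as log2 signal over the 75th percentile of the array. Circles are arrays of slide 1, squares arrays of slide 2, open symbols signals not well above background, lines means and bars SD (n = 3). Cst6 shows the widest gap between the groups, both Ctsd probes and Lgmn show small gaps, and the Ctss symbols are all open.

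Of the proteases that cystatins block, none of the cysteine cathepsin genes passed the threshold. Ctsb encodes cathepsin B, a lysosomal endopeptidase and dipeptidyl carboxypeptidase. Its signal was 31.7, 34.6 and 34.9 on De-HA, against 37.7, 32.4 and 35.4 on FeMnSi, with overlapping groups and a log2 fold change of -0.06 ± 0.10 SE (interval -0.29 to 0.17, -0.16 within slide 1). Ctsl encodes cathepsin L, a broad lysosomal endopeptidase, and had signals of 21.9, 19.1 and 19.2 on De-HA, against 20.5, 22.0 and 21.4 on FeMnSi. Its highest De-HA array, De-HA 1, lay among the FeMnSi arrays, and the log2 fold change was -0.09 ± 0.09 SE (interval -0.31 to 0.13, -0.03 within slide 1). Ctsz encodes cathepsin Z, a carboxypeptidase that takes off 1 residue at a time. It gave 2.84, 2.46 and 2.64 on De-HA, against 2.86, 3.10 and 2.51 on FeMnSi, again with overlap and a log2 fold change of -0.09 ± 0.11 SE (interval -0.36 to 0.17, -0.11 within slide 1).

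Ctsk encodes cathepsin K. Its signal was 28.8, 31.7 and 30.7 on De-HA, against 36.9, 32.6 and 33.5 on FeMnSi, so every De-HA array was below every FeMnSi array by a narrow margin. The log2 fold change was -0.17 ± 0.09 SE (interval -0.39 to 0.04, -0.28 within slide 1), and it did not pass. After quantile normalization it was -0.43 and in the series matrix values -0.42, and in both it passed as lower. These 2 settings gave nearly equal values and are not read as separate support. After median scaling it was -0.26 and did not pass, so its call depends on the scaling. With quantile normalization 10.1% of all genes passed and 4 of the 9 did. For Ctsb quantile normalization and the series matrix values gave -0.32 and -0.32, and for Ctsl -0.31 and -0.31, without passing.

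Ctss encodes cathepsin S, the cysteine cathepsin of antigen-presenting cells. Its probe was not well above background on any of the 6 arrays, so it was not tested and no fold change is given. The signal was 0.00843, 0.0138 and 0.00806 on De-HA, against 0.0207, 0.0180 and 0.0179 on FeMnSi. The lowest signal of any probe well above background was between 0.0184 and 0.0349 on De-HA arrays and between 0.0168 and 0.0221 on FeMnSi arrays. Osteoclasts and macrophages are the other cell types in which Ctsk and Ctss are strongly expressed. Of 10 osteoclast markers, 5 were well above background on all 6 arrays, and Acp5, Dcstamp, Mmp9 and Atp6v0d2 on none. None of the 5 tested passed. The summed signal of the list was 2.95 to 3.16 on De-HA arrays and 3.07 to 3.50 on FeMnSi arrays. Of the 13 macrophage markers on the array, 8 were well above background on all 6 arrays, and Tyrobp, Mrc1 and Laptm5 on none. The sum was 4.95 to 5.45 on De-HA arrays and 3.73 to 4.89 on FeMnSi arrays. Among the 9 tested macrophage markers, Adgre1 (0.77 in log2 units, adjusted p = 0.0138, on slide 1 0.85) and Ptprc (0.55, adjusted p = 0.0432, 0.34 within slide 1) rose and Lyz2 (-0.39, adjusted p = 0.0470, -0.44 within slide 1) fell in limma. Over all genes 10.7% passed in limma. None of these 3 markers passed in the slide-block fit, and Ptprc did not pass after quantile normalization. Their part in the values of the cathepsins was not tested.

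The 2 other proteases were lower on De-HA. Ctsd encodes cathepsin D, the main lysosomal aspartic protease, which cystatins do not block. By its brighter probe, the one tested, the signal was 6.08, 5.85 and 6.02 on De-HA, against 8.37, 8.58 and 7.60 on FeMnSi. The De-HA arrays were nearly level with each other, and all 3 were below the FeMnSi arrays. The means were 5.98 ± 0.121 on De-HA and 8.18 ± 0.517 on FeMnSi (SD, n = 3 each), 1.37-fold lower on De-HA (log2 fold change -0.45 ± 0.09 SE, -0.48 within slide 1). The dimmer probe of the same transcript had signals of 0.407, 0.415 and 0.395 on De-HA, against 0.640, 0.559 and 0.483 on FeMnSi, also with the groups apart, and gave -0.46 (-0.66 within slide 1).

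Lgmn encodes legumain, which cuts after asparagine, helps to process cathepsins B, L and others to their mature forms, and is a target of cystatin E/M. Its signal was 3.03, 2.80 and 2.86 on De-HA, against 3.84, 4.35 and 3.98 on FeMnSi, and the groups do not overlap. The means were 2.90 ± 0.118 on De-HA and 4.06 ± 0.263 on FeMnSi (SD, n = 3 each), 1.40-fold lower on De-HA (log2 fold change -0.48 ± 0.09 SE, -0.41 within slide 1). The RNA of Cst6 and that of Lgmn, inhibitor and target, were thus both lower on De-HA, by very different amounts. Lgmn did not pass in the slide-block fit, and Cst3, whose product also blocks legumain, did not pass. A link between the genes was not tested.

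Of the 9 genes tested, 3 passed the threshold in limma, namely Cst6, Ctsd and Lgmn, all lower on De-HA, and 6 did not. Over all 15535 genes 10.7% passed, 6.46% higher and 4.29% lower, and since the genes were chosen on this comparison nothing is read from their count. These were 1003 higher and 666 lower genes, and after quantile normalization 685 higher and 880 lower, with a median over all genes of 0.00. The arrays of the groups lay apart for 4 of the 9 (Cst6, Ctsd, Ctsk and Lgmn, each lower), and over all genes they lay apart for 39.1%, 25.4% higher and 13.7% lower. The median log2 fold change of the 9 was -0.15, against 0.10 over all genes. After quantile normalization it was -0.32, against 0.00. Nothing is read from these medians either, for the same reason. With the slide as a block, where 1.16% of all genes passed, Cst6 passed and Ctsd and Lgmn did not. Without De-HA 1, 2 or 3, or without FeMnSi 2 or 3, Cst6 was likewise the 1 gene of the set past the threshold. Without FeMnSi 1, where 4611 of all 15535 genes passed, all 3 did.

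**Figure D2:**
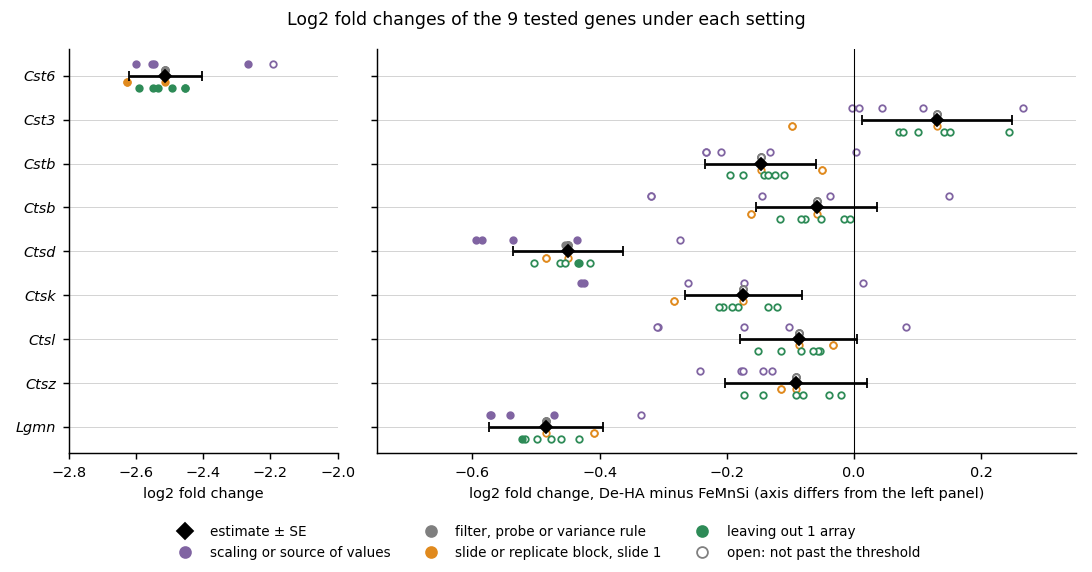
Log2 fold changes (De-HA minus FeMnSi) of the 9 tested genes are shown as black diamonds with SE bars, and under each of 19 other settings as small circles, filled where the gene passed the threshold. Cst6 has a panel of its own, where it was filled in 18 of the 19 settings, while Ctsd and Lgmn were filled in 9 each and Ctsk in 2.

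The genes whose signal followed that of Cst6 most closely over the 6 arrays were Timeless, Tceanc2, Zfp36, Plxdc1 and Trem2, with Pearson's r of 0.998 to 0.999. The arrays form 2 separate groups for each of these genes, so that r mostly restates the difference between scaffolds and is given as a measure of likeness alone. Their log2 fold changes were -1.14, -0.58, -1.03, -2.26 and -1.7 in the same order. Timeless encodes a replication fork protein, Zfp36 an mRNA decay factor, Plxdc1 a membrane protein known from tumour endothelium and Trem2 a receptor of myeloid cells. The most opposite were Acta2, Hnrnpl, Sorbs2, Tmem168 and Slc12a4, with r between -0.999 and -0.997. Acta2, smooth muscle actin, had signals of 33.3, 32.2 and 32.7 on De-HA, against 10.6, 11.5 and 11.6 on FeMnSi, with the groups far apart. Since Cst6 is known from epidermis, markers of epidermal keratinocytes were read beside it. Krt1, Krt15 and Dsg3 were on no array well above background, and 7 of the 11 markers were above it on all 6. The summed signal of the list was 7.10 to 7.85 on De-HA arrays and 3.64 to 3.96 on FeMnSi arrays. Of 8 tested markers Trp63, a transcription factor gene of basal epithelium, rose (1.11, adjusted p = 0.00271 in limma, 1.05 within slide 1, and 0.39 by its other probe) and none fell. Over all genes 6.46% passed as higher. The list sum was thus higher on De-HA, where Cst6 was lower, and its part in the Cst6 value was not tested. A sum of unlike probes is weighted to the brightest, so it does not show that the list as a whole rose. The median log2 fold change of the 8 tested markers was 0.40, against 0.10 over all genes.

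The rest of the cystatin family was mostly dim. Of 19 further cystatin-domain genes 8 were tested, and 2 fell in limma, where 4.29% of all genes passed as lower. Csta2, a mouse stefin A gene whose product is an intracellular cystatin, had signals of 0.0564, 0.0593 and 0.0627 on De-HA, against 0.0807, 0.0815 and 0.0877 on FeMnSi (log2 fold change -0.49 ± 0.09 SE, adjusted p = 0.0230), with a difference on slide 1 of -0.44. Fetub, which encodes fetuin-B, a plasma protein that blocks a metalloprotease of the egg in mice, had 0.108, 0.119 and 0.101 on De-HA, against 0.149, 0.168 and 0.147 on FeMnSi (-0.50 ± 0.10 SE, adjusted p = 0.0324, -0.45 within slide 1). For both genes every De-HA array was below every FeMnSi array. The list median was 0.03, against 0.10 over all genes, and -0.18 after quantile normalization. Neither gene passed in the slide-block fit or without De-HA 1, 2 or 3 or FeMnSi 2 or 3. Without FeMnSi 1, 4 of the 8 passed, beside 4611 of all 15535 genes.

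Of 21 further cathepsin and aspartic protease genes, 12 were tested and none passed in limma, with 6 at an unadjusted p under 0.05. Over all 15535 genes 1669 passed, and 5213 were at an unadjusted p under 0.05. The smallest p-values belonged to Bace1, the gene of the beta-secretase, with signals of 2.75, 2.95 and 2.79 on De-HA, against 2.30, 2.30 and 2.30 on FeMnSi (0.30 ± 0.08 SE, adjusted p = 0.0579), and to Ctso, a lysosomal cysteine cathepsin gene (-0.41 ± 0.11 SE, adjusted p = 0.0621). The median was 0.26, and 0.01 with the slide as a block. Without FeMnSi 1, 3 of the 12 passed, beside 4611 of all 15535 genes. Ctsc, which encodes the dipeptidyl peptidase that activates serine proteases of immune cells, was not well above background on any array.

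Lysosomal sorting genes gave 1 rise and 1 fall in limma among 13 tested, where 10.7% of all genes passed. Sorl1, which encodes a sorting receptor of the Golgi and endosomes, had signals of 0.0351, 0.0567 and 0.0448 on De-HA, against 0.0253, 0.0278 and 0.0228 on FeMnSi (0.82 ± 0.18 SE, adjusted p = 0.0379, 0.82 within slide 1). De-HA 1 was the one array where Sorl1 was not well above background, and Sorl1 did not pass after quantile normalization (0.60). Scarb2, which encodes a membrane protein of lysosomes, had 0.515, 0.457 and 0.457 on De-HA, against 0.597, 0.768 and 0.644 on FeMnSi (-0.48 ± 0.12 SE, adjusted p = 0.0489, -0.33 within slide 1). The receptor genes for mannose 6-phosphate, Igf2r and M6pr, the main route of cathepsins to the lysosome, gave -0.06 (adjusted p = 0.678) and 0.11 (adjusted p = 0.375) in limma. The list median was 0.02. Neither Sorl1 nor Scarb2 passed in the slide-block fit. In the list, 1 gene passed without De-HA 1, none without De-HA 2 or 3 or FeMnSi 2 or 3, and 5 without FeMnSi 1. In that last fit 4611 of all 15535 genes passed.

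Of the 32 lysosomal hydrolase genes other than cathepsins, all were tested, and 7 fell and 1 rose in limma. Arsb, which encodes arylsulfatase B of dermatan sulfate breakdown, had signals of 0.375, 0.285 and 0.314 on De-HA, against 0.509, 0.767 and 0.645 on FeMnSi (-0.97 ± 0.18 SE, adjusted p = 0.0239, -0.66 within slide 1). Its other probe gave -0.25. Naglu, an enzyme gene of heparan sulfate breakdown, had 0.496, 0.463 and 0.501 on De-HA, against 0.778, 0.712 and 0.643 on FeMnSi (-0.54 ± 0.10 SE, adjusted p = 0.0251, -0.68 within slide 1), with no overlap. Tpp1, which encodes a lysosomal tripeptidyl peptidase, gave -0.40 ± 0.09 SE and, within slide 1, -0.33 (adjusted p = 0.0367 over both slides). Gusb, Man2b1 and Manba, which encode enzymes that take sugars off glycans, gave -0.47, -0.32 and -0.43, all past the threshold. Neu1, the sialidase gene, rose, with 6.99, 6.89 and 6.92 on De-HA, against 5.21, 5.50 and 5.72 on FeMnSi (0.34 ± 0.08 SE, adjusted p = 0.0447, 0.41 within slide 1), but did not pass after quantile normalization. The share past the threshold was 21.9% lower and 3.12% higher, against 4.29% and 6.46% of all genes, and the median was -0.10, against 0.10 over all genes and -0.24 after quantile normalization. None of the 32 passed in the slide-block fit (median -0.13). The number was 2 without De-HA 1, 0 without De-HA 2, 0 without De-HA 3, 15 without FeMnSi 1, 1 without FeMnSi 2 and 0 without FeMnSi 3. Over all 15535 genes, 4611 passed without FeMnSi 1.

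Of 26 lysosomal membrane and proton pump genes 1 passed in limma, where 10.7% of all genes did. Atp6ap1, an accessory subunit gene of the proton pump that acidifies lysosomes, fell by 0.42 ± 0.10 SE on the log2 scale (adjusted p = 0.0438), with -0.35 by its other probe and -0.35 within slide 1. Its signals were 0.741, 0.620 and 0.665 on De-HA, against 0.857, 0.943 and 0.903 on FeMnSi. It missed the threshold when its 2 probes were averaged, in the slide-block fit and in those without De-HA 1, 2 or 3 or FeMnSi 2 or 3. Without FeMnSi 1, 4 genes of the list passed, beside 4611 of all 15535 genes. The list median was 0.05. Of 13 lysosome regulator genes, which include Tfeb and Tfe3, the transcription factor genes that drive lysosomal genes, none passed in limma and 4 were at an unadjusted p under 0.05. Rraga and Flcn, which encode a nutrient-sensing GTPase and a regulator of such GTPases, had the smallest p-values (-0.40, adjusted p = 0.0724, and 0.26, adjusted p = 0.0850). Without FeMnSi 1, 4 of the 13 passed, again beside 4611 of all 15535 genes.

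**Figure D3:**
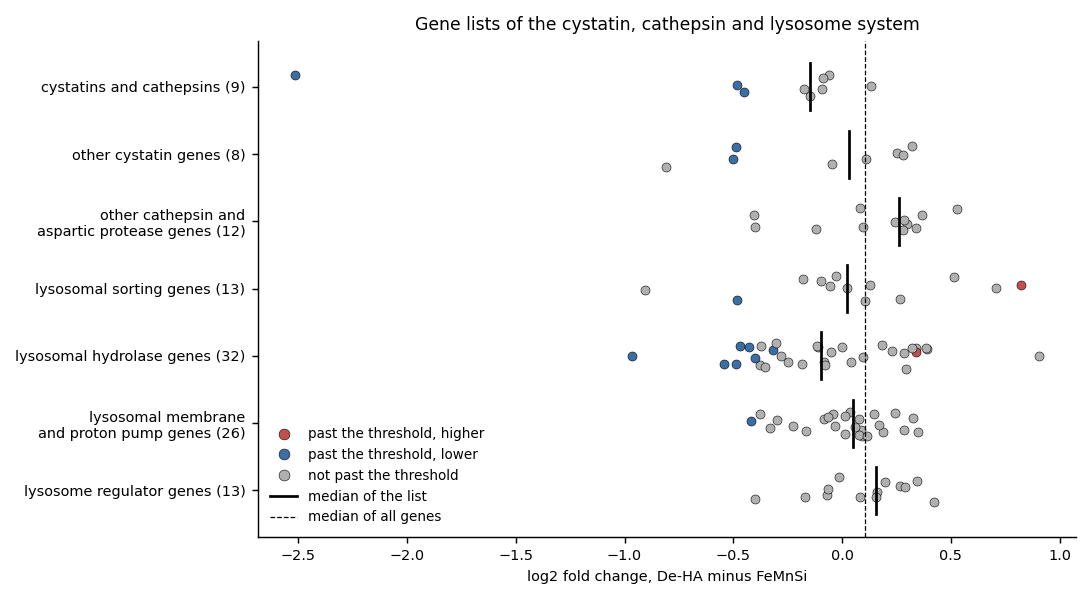
Every tested gene of each list is a point at its log2 fold change (De-HA minus FeMnSi), with the number tested in brackets, short lines for list medians and a dashed line for the median of all genes. Cst6 lies alone at -2.51, and the hydrolase list holds 7 of the points that passed as lower.

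The E-box CACGTG, the core of the motif bound by TFEB and its relatives, was searched in the RefSeq promoter windows (GRCm38.p6, 250 bases before to 50 after each start). The motif is its own reverse complement, so both strands are covered. Windows were matched by symbol for 7 of the 10 genes, 8 windows in all, with 2 for Lgmn. Cst6, Cstb and Ctsb were not analysed here. Ctsd, Ctsl and Lgmn held a match, against 8.09% of 27025 genes with a window. The longer form CACGTGA, read on either strand and overlapping the first, was found for Ctsd and Lgmn, against 4.29% of all genes. Of the genes with a window, CACGTG was held by 5 of 11 sorting genes, 7 of 19 membrane and proton pump genes and 6 of 24 hydrolase genes. It was held by 3 of 13 regulator genes, 3 of 15 other cathepsin and aspartic protease genes and 0 of 17 other cystatin genes. A match is a run of letters and not a measured binding site.

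The windows of the 2 protease genes past the threshold are shown up to their starts, 5′ to 3′. Both genes lie on the minus strand, which is the strand printed, with each CACGTG in capitals. The Ctsd window, chr7:142387828-142388077, holds 2 matches, which begin at positions -245 and -98 from the start. Lgmn has its match at -49 of the downstream start, chr12:102439093-102439342, and none before the upstream start, chr12:102439729-102439978.
Ctsd: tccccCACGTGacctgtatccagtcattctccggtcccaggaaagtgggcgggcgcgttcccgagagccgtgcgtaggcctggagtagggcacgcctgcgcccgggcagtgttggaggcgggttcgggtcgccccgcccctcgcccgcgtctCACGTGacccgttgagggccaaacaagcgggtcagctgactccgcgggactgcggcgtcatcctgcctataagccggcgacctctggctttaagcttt
Lgmn, downstream start: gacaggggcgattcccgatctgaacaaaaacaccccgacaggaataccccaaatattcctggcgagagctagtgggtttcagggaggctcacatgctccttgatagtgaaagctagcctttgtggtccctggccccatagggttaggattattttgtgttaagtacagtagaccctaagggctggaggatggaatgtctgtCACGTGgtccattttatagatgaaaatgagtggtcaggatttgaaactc
Lgmn, upstream start: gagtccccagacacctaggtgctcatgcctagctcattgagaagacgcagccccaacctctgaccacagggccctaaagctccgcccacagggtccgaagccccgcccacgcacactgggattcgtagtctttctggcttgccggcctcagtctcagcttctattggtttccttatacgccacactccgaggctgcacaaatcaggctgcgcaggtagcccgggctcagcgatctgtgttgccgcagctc
In the window of Ctsl, a gene not past the threshold, the match begins at -236. Base composition differed between these windows, with 67.3% G and C in the full window of Ctsd, and 48.0% and 61.0% in those of the downstream and upstream starts of Lgmn. Cst3, Ctsk, Ctss and Ctsz held no match in these letters.

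**Figure D4:**
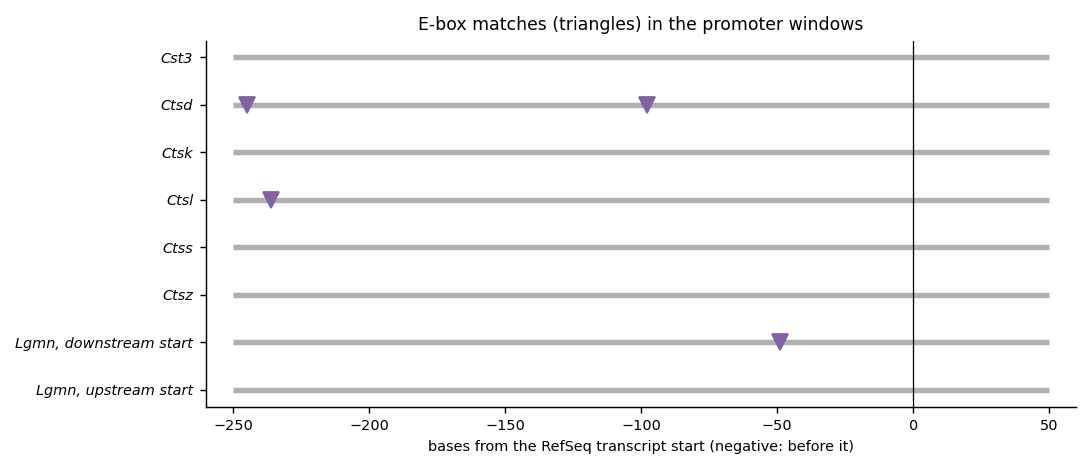
Grey bars are the 8 promoter windows, drawn by distance in bases from the RefSeq transcript start, and triangles mark CACGTG. Triangles stand at -245 and -98 for Ctsd, at -236 for Ctsl and at -49 for the downstream start of Lgmn.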

How the data were processed

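RNA of MC3T3-E1 cells was measured on 6 single-colour Agilent arrays, 3 per scaffold. The submitters' processing notes name Agilent Feature Extraction 11.0.1.1. The deposited signals are linear intensity values per spot, background-subtracted and detrended within each array per the file headers, and were not scaled between arrays. Each array has 44397 spots, 1377 of them controls. The deposited series matrix holds log2 values, with every column median at 5.78 and r of 0.997 to 1.00 against each array's own log2 scanner values. Their normalization is not given in the sources used here. They served as an alternative. The gene names and promoter windows come from RefSeq, GRCm38.p6, and no coordinates beyond those windows were used, because the array files name another build.

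From each log2 signal the array's 75th percentile over non-control spots was subtracted, spots marked as outliers were dropped and the spots of a probe averaged. A probe was kept if 3 or more arrays marked it well above background, which left 28380, less 205 with every spot an outlier on some array. Of all probes 27234 carry 1 symbol and 12195 none. The brightest probe stood for a gene. The comparison of De-HA with FeMnSi used lmFit and eBayes of limma 3.58.1 under R 4.3.3, with Benjamini-Hochberg adjustment over 15535 genes and a threshold of 0.05. Of these genes 1669 passed and 5213 had an unadjusted p under 0.05. The fit was tested on simulated data, where it recovered 74% of changes of 1 log2 unit and 93% of changes of 2. Smaller changes were not simulated, so a gene that did not pass can still differ. With 6 arrays, their number limits the precision.

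The genes and lists were chosen with earlier results of these data known. All 10 genes were named; of each pathway list up to 3 members past the threshold per direction with the smallest p-values, or the 2 smallest where none passed; of each marker list up to 3 members; and the 5 genes with the highest and the 5 with the lowest correlation with Cst6. Marker genes named beyond that number, and Igf2r, M6pr, Tfeb, Tfe3, Ctsc, Gusb, Man2b1 and Manba, were chosen after their values were seen. The files hold no mean-signal column, so normexp used the median spot and background signals. The planned protein comparison was not made, and 1 hydrolase gene that counts in its list is not reported here by name. The alternatives cover scaling, background, filter, probe, variance, slide, replicate number and leaving out each array. Same-numbered replicates of the groups had deviations from their group means that correlated at 0.01, -0.11 and 0.12 over genes. These values gave no sign of pairing by number. They cannot exclude it, since FeMnSi 1 was on another slide than FeMnSi 2 and 3. Plots used matplotlib 3.10.9 (Python 3.11.15).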

Additional observations from a re-analysis of the deposited data

How the results depend on the processing

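Cst6 stayed between -2.63 and -2.19 on the log2 scale in all 19 settings and passed in 18. Part of this was fixed in advance, since Cst6 has 1 probe with 1 spot, never marked an outlier and well above background on all 6 arrays. Its estimate of -2.51 therefore could not move with the filter, probe, outlier, intensity trend or replicate block settings. The slide-block fit and slide 1 alone give the same estimate by design, -2.63. The exception, normexp background correction with an offset of 50, called 0 of all genes in limma, with 1313 at an unadjusted p under 0.05. On FeMnSi 3 the local background exceeded the spot for 6 spots and reached 35782, against 22.0 to 33.0 at most on the other arrays. In that setting the signs of Cstb (0.00334), Ctsb (0.15), Ctsk (0.0149) and Ctsl (0.0817) turned, and the median of all genes was -0.17, against 0.10. In a setting chosen after seeing the data, the array median replaced the local background of every spot marked as a background outlier or below its background, 1168 to 1323 spots an array, and 2039 genes and 3 of the set passed. Cst3 turned to -0.00277 in the series matrix values, and the cause was not tested. It was -0.0966 both in the slide-block fit and on slide 1 alone, since both estimates compare De-HA with FeMnSi 1 only. Its signal was 7.54 on FeMnSi 1, against 5.93 and 5.97 on FeMnSi 2 and 3. The number past the threshold, 3 of the set and 1669 of all genes, was 1 and 519 without the filter on dim probes, where more genes were tested, 1 and 180 in the slide-block fit, 1 and 36 on slide 1 alone, and 1 and 693 with a replicate block. Leaving out 1 array gave 1 to 3 of the set and 227 to 4611 of all genes, the highest count without FeMnSi 1. Without the filter on dim probes no gene of the 6 pathway lists passed, and with the replicate block 1 sorting gene did. With the intensity trend 2399 genes passed. Ctss rests on signals not well above background, so no direction could be measured.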
